A study of Mus musculus with 2 samples.

Results

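Collagens, laminins, thrombospondins and integrins are the genes by which a cell builds its matrix and holds on to it. They were taken here by name alone, as the rows of the deposited table whose whole symbol names a collagen, laminin, thrombospondin or integrin gene. This gave 85 of 55468 rows: 44 collagen chains, 11 laminin chains, 4 thrombospondins, 18 integrin alpha subunits and 8 integrin beta subunits. The families, and the gene lists used further on, were chosen with earlier results of these data known. RNA of KPC2, a mouse pancreatic cancer line, was sequenced from wild type cells that received no drug and from gemcitabine resistant cells that had been treated for long with 260 ng/mL gemcitabine, a nucleoside analog used against this cancer, and were kept in it. Both grew in the same serum-containing medium. Whether 1 clone gave rise to the resistant cells is not stated. There was 1 library per group, so each difference below describes these libraries, without a test between the conditions, and an effect of drug still present cannot be told apart from a state that would outlast it.

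Epithelial cells rest on a basement membrane, a sheet of type IV collagen and laminin networks. A laminin is a trimer of 1 alpha, 1 beta and 1 gamma chain that is assembled inside the cell, so which chains are made together sets which laminins can be secreted. Integrins are receptors of 1 alpha and 1 beta subunit that bind laminins, collagens or proteins carrying the RGD motif outside the cell and couple to actin, or, in the case of the Itga6 and Itgb4 pair, to keratin filaments in hemidesmosomes. Thrombospondins are secreted matrix glycoproteins that bind integrins, Cd47 and Cd36.

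The deposited values were read as FPKM, fragments scaled to transcript length and library depth, which can be compared between genes. Of the 85 members, 29 reached 1 FPKM in either library and are called measured. Difference is given as a log2 ratio, log2((resistant FPKM + 1)/(wild type FPKM + 1)), and a gene past 1 in size is called at least 2-fold higher or lower. Folds are plain ratios of FPKM, and their 95% intervals cover counting error alone, since no spread between libraries was measured. Fragment numbers were worked back from the spacing of low values, and the measured members had a median of 1390 of them in the wild type library. The epithelial keratin genes Krt8, Krt18 and Krt19 were at 1122.9 FPKM or above in both libraries and Cdh1 stood at 206 FPKM in wild type cells and 164 FPKM in resistant cells, while Epcam was at 0.211 and 0.103 FPKM.

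Of the 29 measured members, 5 were at least 2-fold higher in the resistant library (among them Thbs1, Itga7, Lamb3 and Itgb2), 1 was at least 2-fold lower (Lamb1), and 23 lay within 2-fold. That is 17.2% higher and 3.45% lower. Among the 12193 measured genes of the whole table, 7.90% passed 2-fold upward and 8.37% downward. The members' median log2 ratio was 0.11 and that of all measured genes 0.02. The members farthest from 0 were Thbs1 and Lamb1, and all 7 measured collagens lay within 2-fold. In the authors' deposited table, 31 members have a test of the 2 libraries and none was called, against 0.404% of all genes tested there; the lowest q-value among the members there was 0.123, for Thbs1.

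**Figure D1:**
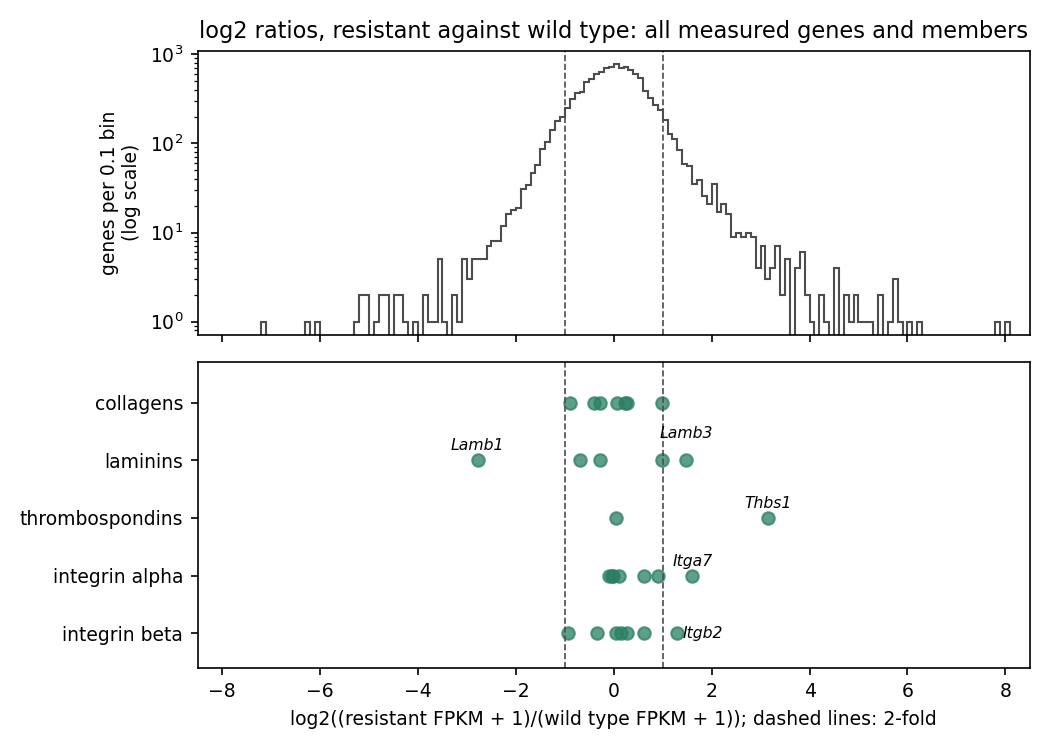
Top, number of all 12193 measured genes in each 0.1 step of the log2 ratio (x axis, resistant against wild type; y axis on a log scale); bottom, the log2 ratio of 28 of the 29 measured members by family, 1 point per gene. Dashed lines mark 2-fold, and 17 measured genes beyond a log2 ratio of 8.5 in size are not drawn. Thbs1 at 3.16 and Lamb1 at -2.78 stand farthest out, and all 7 collagens lie between the lines.

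The laminin chains differed in opposite directions. Lamb1, which encodes the beta chain of the broadly made laminins, stood at 6.10 FPKM in wild type cells and at 0.0319 FPKM in the resistant library. The resistant value rests on about 4 fragments (95% interval 0.00835 to 0.0785 FPKM) and the wild type value on about 823. Lamb1 was thus 191-fold lower (95% interval 77.5 to 732) in the resistant library, the 50th lowest log2 ratio of all measured genes. Lamb3, the beta chain that joins Lama3 in the laminin of epithelial anchoring, was higher instead, at 46.7 FPKM against a wild type level of 16.1 FPKM, a 2.90-fold difference (95% interval 2.75 to 3.06). Lamb2, the beta chain prominent at neuromuscular and kidney basement membranes, differed least of the 3, with 10.6 FPKM in the wild type library and 8.55 FPKM in the resistant library. As a share of all laminin beta FPKM in a library, Lamb3 made up 49.1% in wild type cells and 84.5% in the resistant cells, and Lamb1 made up 18.6% and 0.0577%.

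The promoters of the 3 beta chain genes are shown because the RNA of these 3 related genes was far lower, little different and higher in the resistant library. Each line gives the 250 bases before the first start that RefSeq lists (GRCm38.p6), 5′ to 3′ on the plus strand, on which all 3 genes lie, with every CG pair in capitals. The stretches are chr12:31265043-31265292 for Lamb1, chr9:108479612-108479861 for Lamb2 and chr1:193301744-193301993 for Lamb3.
Lamb1: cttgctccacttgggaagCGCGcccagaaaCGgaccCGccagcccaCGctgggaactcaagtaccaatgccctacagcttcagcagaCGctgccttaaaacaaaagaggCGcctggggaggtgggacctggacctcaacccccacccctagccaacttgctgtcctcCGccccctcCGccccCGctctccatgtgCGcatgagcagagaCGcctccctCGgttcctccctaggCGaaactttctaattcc
Lamb2: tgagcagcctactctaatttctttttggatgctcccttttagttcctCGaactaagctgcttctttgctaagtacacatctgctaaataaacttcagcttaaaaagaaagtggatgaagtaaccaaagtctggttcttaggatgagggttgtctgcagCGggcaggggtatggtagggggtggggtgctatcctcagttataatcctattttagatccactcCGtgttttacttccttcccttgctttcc
Lamb3: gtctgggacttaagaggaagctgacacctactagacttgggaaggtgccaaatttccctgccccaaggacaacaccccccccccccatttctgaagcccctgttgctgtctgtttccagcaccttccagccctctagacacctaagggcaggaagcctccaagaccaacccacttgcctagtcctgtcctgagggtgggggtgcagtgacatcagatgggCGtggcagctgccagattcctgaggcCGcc

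The Lamb1 stretch holds 14 CG pairs, the Lamb2 stretch 3 and the Lamb3 stretch 2, where the median of 32817 RefSeq stretches of the same length is 6. GC content is 62% for Lamb1, 43.6% for Lamb2 and 58.8% for Lamb3. The GC box GGGCGG, searched on both strands, occurs 2 times before Lamb1 and not before Lamb2 or Lamb3; 32.7% of all the stretches hold it. The AP-1 motif TGANTCA (both strands) is in none of the 3 and in 6.75% of all stretches. A second Lamb3 start lies 249 bases downstream in RefSeq, and its stretch holds 3 CG pairs and neither the GC box nor the AP-1 motif. The CRE motif TGACGTCA and the TEAD motif GGAATG were searched as well. CRE is in none of these stretches and in 1.55% of all. TEAD occurs only in the stretch of the second Lamb3 start, and 12.6% of all stretches hold it. No DNA methylation or binding was measured here. Of the 85 members, 61 had a promoter entry, and Thbs1, Itga7 and Itgb2 had none.

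Lamc1, the common gamma chain, stood at 44.9 FPKM in wild type cells and 89.7 FPKM in resistant cells, 1.997-fold higher (95% interval 1.94 to 2.05), which is just inside the 2-fold line on the log2 scale used (0.98). Lamc3 was at 0.0146 and 0.0226 FPKM.

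The alpha chains differed in both directions. Lama5, the main alpha chain of adult epithelial basement membranes, was the only one at 1 FPKM or more, and it was lower in the resistant library, at 8.08 FPKM against 13.6 FPKM in the wild type (0.592-fold, 95% interval 0.561 to 0.625), within 2-fold. Lama3, the alpha partner of Lamb3, stayed below 1 FPKM in both libraries. Its 0.0233 FPKM in the wild type rested on about 6 fragments and its 0.576 FPKM in the resistant library on about 139, a fold of 24.7 (95% interval 10.7 to 66.4). Even so, Lamb3 was 81.0 times as abundant as Lama3 in the resistant library, and 691 times in the wild type. Summed, alpha chains came to 13.7 FPKM in wild type cells and 8.69 FPKM in the resistant library, and beta chains to 32.8 and 55.2 FPKM. The beta sum was thus higher and the alpha sum lower in the resistant cells. Lama1 was listed at 0 in both libraries, and Lama2 and Lama4 were below 0.03 FPKM.

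**Figure D2:**
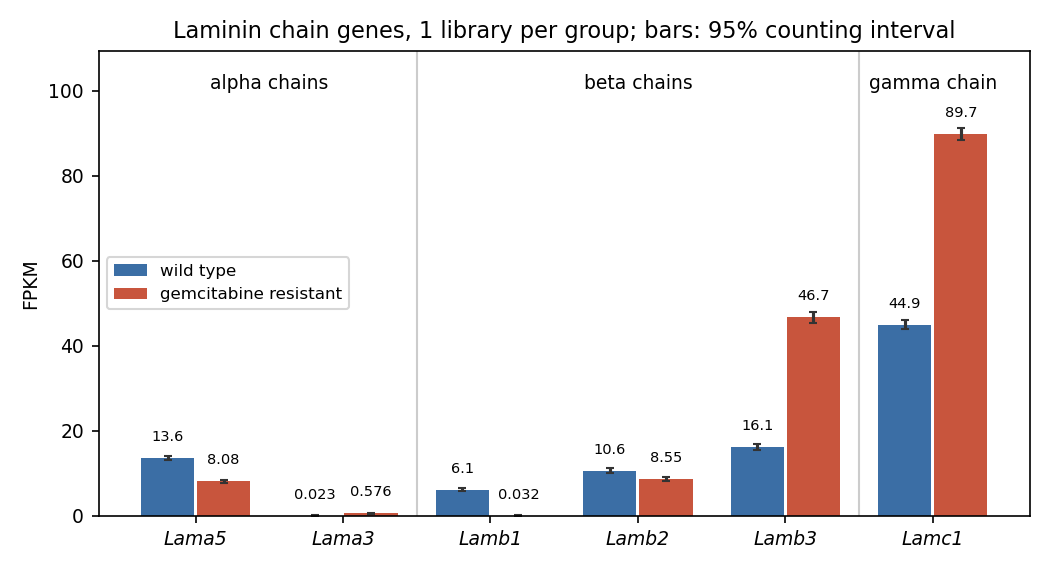
FPKM (y axis, linear, from 0) of 6 laminin chain genes in wild type cells and the resistant library, 1 library each, with bars for the 95% counting interval. Lamb3 and Lamc1 are taller in the resistant library, Lama5 and Lamb1 shorter, and Lama3 is close to 0 in both.

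Lamc1 lies on the minus strand of chromosome 1 (GRCm38, GENCODE annotation), at 153218922 to 153332786. Dhx9, the nearest measured protein-coding gene on one side, had a log2 ratio of -0.71. Lamb3 lies on the same chromosome, 193207699 to 193343878. That GENCODE span begins upstream of the first RefSeq start, so the Lamb3 stretch shown above, from 193301744, lies inside it. The sequence before the GENCODE start of Lamb3 was not examined. The stretches shown for Lamb1 and Lamb2 also lie in part inside the GENCODE spans, which begin at 31265234 and 108479736. The measured protein-coding genes nearest to Lamb3, A130010J15Rik at 29.9 kb and Plxna2 at 1274 kb, had log2 ratios of 0.29 and -0.10. Lamb1 lies on chromosome 12, 31265234 to 31329644. Its neighbour Dld, 1.63 kb away, had a log2 ratio of 0.20, and Fam110c, the nearest measured protein-coding gene on the other side at 185 kb, had one of -0.09. Neither was low with Lamb1.

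Thbs1, a thrombospondin that activates latent TGF-beta and binds Cd47, Cd36 and integrins, had the highest ratio of all members. It stood at 0.724 FPKM in the wild type, on about 99 fragments, and at 14.4 FPKM in the resistant library, on about 1901. The fold was 19.9 (95% interval 16.2 to 24.5) and the log2 ratio of 3.16 ranked 73rd from the highest of all measured genes. Thbs1 lies on chromosome 2, 118111876 to 118127133, and its nearest measured protein-coding neighbours, Fam98b and Eif2ak4, had log2 ratios of -0.64 and 0.13. Thbs3, a thrombospondin of the pentameric group, was level between the libraries (8.02 and 8.26 FPKM, fold 1.03, 95% interval 0.929 to 1.14), though 318 of its exon bases overlap Mtx1 on the other strand (60.5 and 67.3 FPKM) and whether counting used strand is unknown. Thbs2 was listed at 0 in both libraries and Thbs4 was at 0.0274 FPKM in wild type cells and listed at 0 in the resistant library. Of the receptors, Cd47 was level at 72.4 and 74.1 FPKM, and Cd36 stood at 0.0520 FPKM in wild type cells and 1.295 FPKM in the resistant library.

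Among the collagens, 7 of 44 were measured and none passed 2-fold. The network-forming Col4a1 and Col4a2, the main chains of basement membrane collagen, stood at 93.9 and 24.8 FPKM in wild type cells and at 98.1 and 29.9 FPKM in the resistant library. They lie head to head on chromosome 8 and share 22 exon bases. Col18a1, the precursor of endostatin and a basement membrane proteoglycan, was at 43.5 FPKM in wild type cells and 51.3 FPKM in the resistant library. These 3 genes made up most of the collagen FPKM in both libraries: Col4a1 alone came to 55.3% of it in wild type cells and 52.9% in the resistant library. Summed over all 44 genes, collagen FPKM was 170 in wild type cells and 186 in the resistant library.

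The low collagens differed more, on fewer fragments. Col4a5, an X-linked type IV chain, stood at 0.410 FPKM in wild type cells and 1.81 FPKM in the resistant library, a fold of 4.41 (95% interval 3.33 to 5.88) that the pseudocount reduces to a log2 ratio of 0.99. Col27a1, a fibrillar collagen of cartilage, was lower in the resistant library, at 0.965 FPKM against 2.68 FPKM in the wild type, a log2 ratio of -0.90. Both pass 2-fold when the pseudocount is 0.1 FPKM. The beaded filament chains Col6a1 (2.44 and 1.84 FPKM in wild type cells and resistant library) and Col6a2 (1.15 and 0.628 FPKM) were both lower in resistant cells within 2-fold. Col7a1, the collagen of the anchoring fibrils that hold epithelial laminin to the stroma, was named after its values were seen: it was at 0.00459 FPKM in the wild type, 1 fragment, and at 0.235 FPKM in the resistant library, about 50 fragments, a ratio of 51.2 with a counting interval of 8.86 to 2082.

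Collagens of connective tissue were close to absent. Of the 11 fibrillar collagens, Col27a1 alone was measured; Col1a2 was listed at 0 in both libraries, and Col1a1 and Col3a1 reached at most 0.0448 FPKM. None of the 9 fibril-associated and 4 transmembrane collagens was measured. In all, 56 members lay under 1 FPKM in both libraries, 25 of them listed at 0 in both, and the highest value among the 56 was the 0.576 FPKM of Lama3. Fibroblast markers were as low: none of 8 was measured, their summed level was 0.437 FPKM in wild type cells and 0.686 FPKM in the resistant library, and Lum, Pdpn, Fap and Postn were listed at 0 in both.

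**Figure D3:**
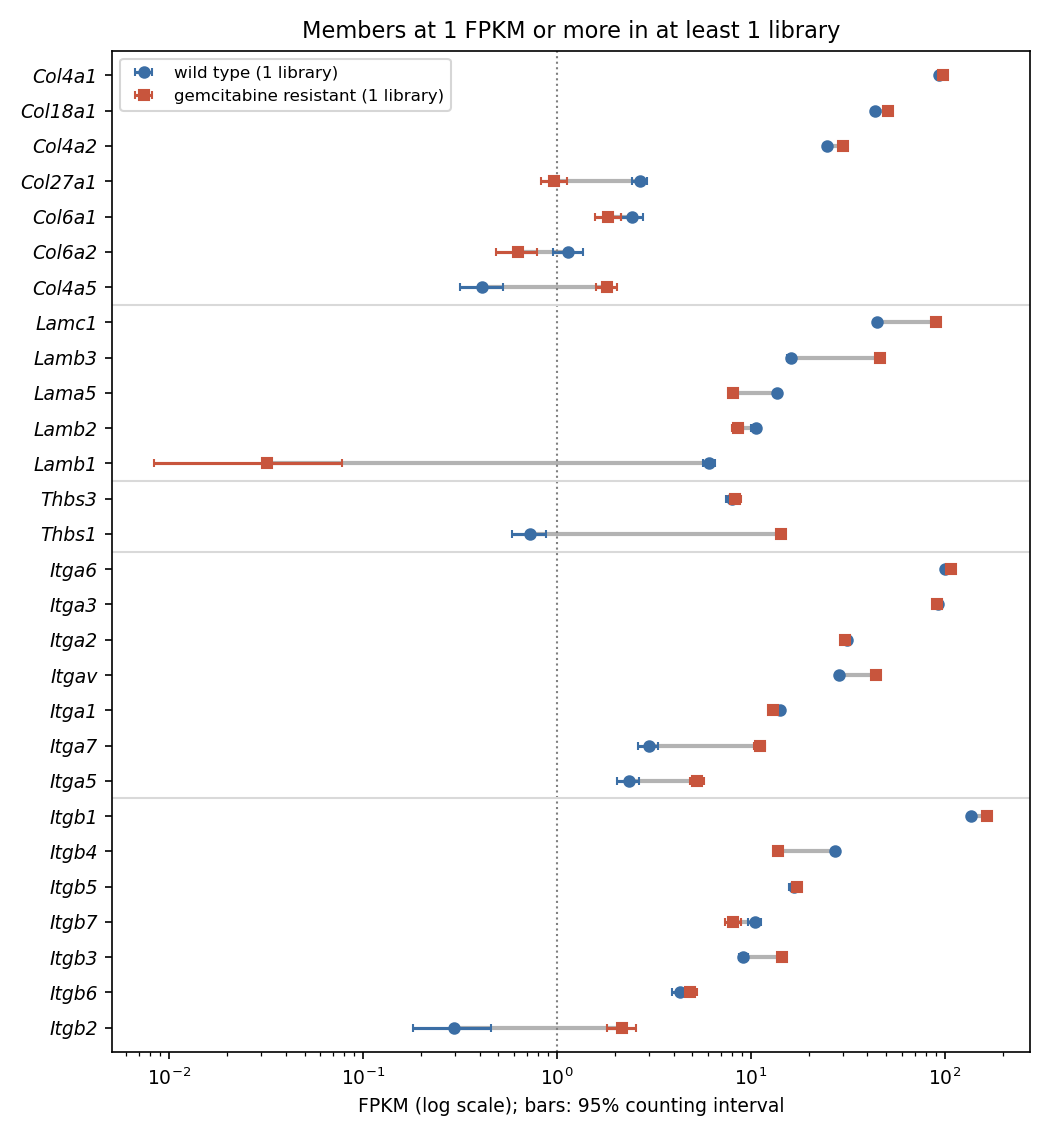
FPKM (x axis, log scale) of 28 of the 29 measured members in the wild type library (circles) and the resistant library (squares), 1 library each; bars are 95% counting intervals and the dotted line is 1 FPKM. Itga3, Itga6, Col4a1 and Itgb1 are near 100 FPKM with little distance between the libraries, and Lamb1 and Thbs1 have the longest lines.

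The most abundant integrin alpha genes were nearly level. Itga6 and Itga3, whose products bind laminins, stood at 100.2 and 92.5 FPKM in wild type cells and at 108 and 91.6 FPKM in the resistant library; for Itga3 the fold was 0.990 with a counting interval of 0.963 to 1.02. Itga2 and Itga1, the collagen-binding subunits and neighbours on chromosome 13, were at 31.6 and 14.1 FPKM in wild type cells and at 30.6 and 13.1 FPKM in the resistant library. The Itga1 value is uncertain in part, since 685 of its exon bases also belong to Gm49395 on the same strand. Itgb1, the shared partner of all 4, stood at 137 and 165 FPKM. It was the first of the beta subunits in both libraries, with 66.7% of beta subunit FPKM in wild type cells and 73.0% in the resistant library.

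Itga7, a laminin-binding subunit best known from muscle, was the alpha subunit with the highest ratio. It stood at 2.97 FPKM in wild type cells and 11.1 FPKM in the resistant library, a fold of 3.74 (95% interval 3.27 to 4.29). It lies on chromosome 10, 128933818 to 128958282, where it shares 9 exon bases with Mettl7b on the opposite strand. Mettl7b was itself higher in the resistant library, at 24.5 FPKM against 2.26 FPKM, and its part in the Itga7 value was not tested. Bloc1s1 on the other side had a log2 ratio of 0.18.

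Itgb4, the hemidesmosome subunit that pairs with Itga6, went the other way. It was at 27.2 FPKM in wild type cells and 13.8 FPKM in the resistant library, 0.509-fold (95% interval 0.482 to 0.537), a log2 ratio of -0.93 that passes 2-fold lower when the libraries are scaled to the same upper quartile. Itgb4 shares 537 exon bases with the noncoding B230344G16Rik on the other strand. The next gene, Galk1, lies 0.045 kb away and stood at 16.2 and 55.6 FPKM. The part of either in the Itgb4 value was not tested. Sap30bp, the nearest measured protein-coding gene on the other side at 7.98 kb, was lower in the resistant library (41.0 and 24.1 FPKM, log2 ratio -0.74). Itga6 was 3.69 times as abundant as Itgb4 in the wild type library and 7.84 times in the resistant library. Of the other hemidesmosome genes, Dst (20.02 and 26.6 FPKM), Plec (62.4 and 87.3 FPKM) and Cd151 (62.4 and 61.4 FPKM) lay within 2-fold. Col17a1 was at 0.0157 FPKM in wild type cells and listed at 0 in the resistant library. Krt14 was at least 2-fold higher (8.51 and 47.0 FPKM), while Krt5 was listed at 0 in both libraries. Of the 4 measured hemidesmosome partners outside the member families, 1 was thus higher and none lower. Among all measured genes the shares were 7.90% and 8.37%.

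Of the 4 alpha subunits that bind RGD proteins such as fibronectin and vitronectin, 2 were measured, Itga5 and Itgav, and neither passed 2-fold. Itga8 was listed at 0 in both libraries, and Itga2b, the platelet subunit, was at 0.105 FPKM in wild type cells and 0.0131 FPKM in resistant cells. Itga5, the fibronectin receptor subunit, was at 2.35 FPKM in wild type cells and 5.29 FPKM in the resistant library (plain fold 2.25, log2 ratio 0.91, which becomes 1.14 at a pseudocount of 0.1 FPKM). Itgav, which shares 634 exon bases with Gm13684 on the other strand, stood at 28.6 and 44.1 FPKM and its partner Itgb3 at 9.17 and 14.6 FPKM. The partners Itgb5 (16.7 and 17.3 FPKM) and Itgb6 (4.31 and 4.87 FPKM) had counting intervals of the fold that include 1, from 0.957 to 1.12 and from 0.995 to 1.28. Itgb8 was listed at 0 in wild type cells and was at 0.0122 FPKM in the resistant library.

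The beta subunits of leukocyte integrins were present almost without their alpha partners. Itgb2 stood at 0.297 FPKM in the wild type, on about 20 fragments, and at 2.16 FPKM in the resistant library, on about 141, a fold of 7.28 (95% interval 4.54 to 12.3). Its partners Itgal, Itgam, Itgax and Itgad were at most 0.0123 FPKM in either library. Itgb7 stood at 10.5 and 8.11 FPKM, whereas its partner Itga4 was listed at 0 in both and Itgae was at 0.0681 and 0.0587 FPKM. None of 6 leukocyte markers was measured. Their sum was 0.0962 FPKM in wild type cells and 0.263 FPKM in the resistant library, most of the latter from Ptprc (0.232 FPKM, listed at 0 in the wild type), with Cd3e listed at 0 in both. The part of such cells in the Itgb2 value was not tested, and in bulk RNA more cells of a type and more RNA per cell cannot be told apart. At a pseudocount of 5 FPKM Itgb2 no longer passed 2-fold.

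Genes that serve the members were described from 7 further lists, in each case by their count past 2-fold. Over all measured genes, 7.90% passed 2-fold upward and 8.37% downward, and the median log2 ratio was 0.02. The lists are small, so a count of 1 or 2 genes is not read as a result about a list. Genes of these lists that lay within 2-fold or under 1 FPKM and are named here were chosen after their values were seen. Of 16 measured genes for collagen folding and hydroxylation, 1 was at least 2-fold higher and 2 lower, with a list median log2 ratio of 0.09. At a pseudocount or a filter of 5 FPKM, Serpinh1 alone of the 3 still passed. The lower ones were Serpinh1, the collagen chaperone of the endoplasmic reticulum (25.4 FPKM in the wild type, 9.19 FPKM in the resistant library), and Fkbp10, a prolyl isomerase that acts on procollagen (4.11 and 0.384 FPKM). The higher one was P3h2, a prolyl hydroxylase of type IV collagen (0.440 and 3.05 FPKM). Of 7 measured genes for collagen processing and crosslinking, none was at least 2-fold higher and 2 were lower, with a median of -0.54: Pcolce, which speeds removal of the procollagen end (22.8 and 4.76 FPKM), and Pxdn, which crosslinks type IV collagen (2.28 and 0.0172 FPKM). At a pseudocount or a filter of 5 FPKM, Pcolce alone of the pair passed. Lox was listed at 0 in both libraries.

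All 9 measured genes of other basement membrane proteins lay within 2-fold, with a median of 0.21. Among them Nid1, which links laminin to collagen (20.6 and 32.0 FPKM), and perlecan, Hspg2 (7.12 and 12.2 FPKM), had log2 ratios above 0, and Sparc (96.5 and 57.8 FPKM) one below 0. Of 10 measured integrin ligands outside the member families, 3 were at least 2-fold higher and 1 lower, with a median of 0.67. Among all measured genes the shares were 7.90% higher and 8.37% lower. Fibronectin, Fn1, was at 2.93 FPKM in wild type cells and 18.6 FPKM in the resistant library, the leukocyte integrin ligand Icam1 at 12.0 and 33.0 FPKM, and Ccn1, a matricellular ligand of several integrins, at 4.64 and 177 FPKM. Ltbp1, which stores latent TGF-beta in the matrix, was lower (12.7 and 3.46 FPKM). Within 2-fold, Npnt, Tgfb1, Vcam1 and Ccn2 had log2 ratios from 0.52 to 0.88, and Spp1 and Cdh1 had -0.69 and -0.33. Spp1 had the highest FPKM of the list (818 and 508 FPKM). The summed FPKM of the list was 1216 in wild type cells and 1164 in the resistant library.

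Of 10 measured matrix receptors other than integrins, 2 were at least 2-fold higher and 1 lower, with a median of 0.12. The collagen receptor kinase gene Ddr2 stood at 0.0102 FPKM in wild type cells and 1.82 FPKM in the resistant library, next to a level Ddr1 (18.5 and 21.5 FPKM). Cd36 was the other higher one, and dystroglycan, Dag1, a laminin receptor, the lower one (67.1 and 32.8 FPKM). None of the 3 passed at a pseudocount of 5 FPKM, and Dag1 alone did at a filter of 5 FPKM. In the list of integrin activation and focal adhesion, 17 of 20 measured genes lay within 2-fold and the median was 0.18. The 3 others were talin and kindlin genes, whose products switch integrins on: Fermt1, the epithelial kindlin, was lower (12.9 and 5.496 FPKM), and Fermt2 (0.572 and 4.16 FPKM) and Tln2 (3.12 and 8.96 FPKM) were higher. None of these 3 passed 2-fold at a pseudocount of 5 FPKM. Tln1 was near level at 28.4 and 33.8 FPKM. Fermt1 thus exceeded Fermt2 in both libraries, by a smaller margin in the resistant library.

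**Figure D4:**
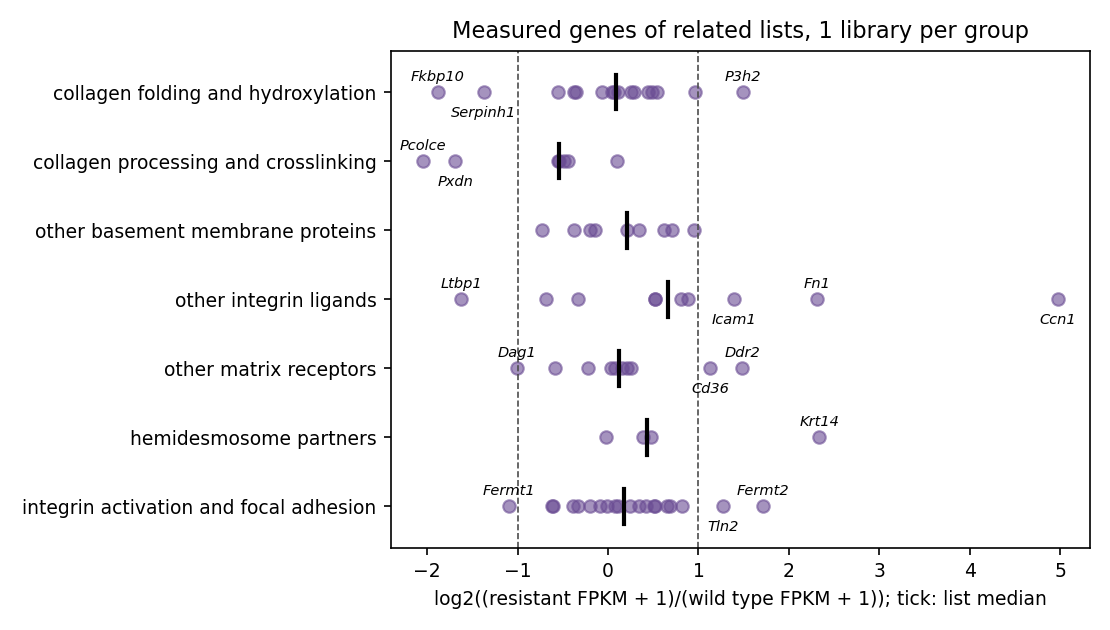
Log2 ratio (x axis, resistant against wild type) of each measured gene in 7 lists of genes that work with the members, 1 point per gene; black ticks are list medians and dashed lines mark 2-fold. Genes past 2-fold are named; no list lies wholly on one side of 0.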

How the data were processed

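Total RNA of KPC2 wild type and gemcitabine resistant cells was sequenced, 1 library each. HISAT2, StringTie and GRCm38 are named without role or version, per the submitters' processing notes. The deposited table names no unit. Its values were taken to be FPKM from the authors: they are fractional, sum to 998508 and 1197279, and fall on fragment steps: with 160 bases taken off the length, 92.9% and 93.7% of low values of single-transcript genes came within 0.1 of a whole number. Over a kilobase, 1 fragment gave 0.0417 FPKM (wild type) or 0.0431 FPKM (resistant). Fragment numbers of members use the longest GENCODE transcript, so they are approximate; intervals are exact (Poisson for levels, conditional binomial for folds, 95%). The p-values and q-values are the authors' deposited ones, per the file headers, from 1 library per side.

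Rows of 1 symbol were summed (no member had more than 1), and 13 rows marked failed or too deep were left out, none a member. Among the members, 1 gene is counted but its own values are not reported here. All 85 members matched the annotation inside the authors' locus. The pseudocount was 1 FPKM, the level filter 1 FPKM and the fold line 2. Every measured member was eligible to be named, with its partners in a trimer or pair, and from each related list up to 3 genes per direction past 2-fold; Col7a1, list genes within 2-fold and the promoter motifs were chosen after values were seen. The members and lists were chosen with earlier results of these data known. In the lists, 1 symbol was not matched. The fold calls were tried on simulated data that held counting error alone and folds well past the line. That trial cannot speak to folds near 2 or to spread between libraries. Other pseudocounts, filters, scalings, fold lines and row choices were tried. Software was Python 3.11.15 with scipy 1.17.1, numpy 2.4.6 and pandas 2.3.3, and figures used matplotlib 3.10.9.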

Additional observations from a re-analysis of the deposited data

How the results depend on the processing

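Thbs1, Lamb3 and Itga7 stayed at least 2-fold higher, and Lamb1 at least 2-fold lower, under pseudocounts of 0.1 and 5 FPKM, both rescalings, the row with the highest mean per symbol, no level filter and a filter of 5 FPKM. Itgb2 did so except at the pseudocount and the filter of 5 FPKM. The count of higher members was 5, and it was 7 at a pseudocount of 0.1 FPKM (with Col4a5 and Itga5), 4 at a pseudocount or a filter of 5 FPKM, 1 (Thbs1) at a fold threshold of 4 and 10 at a threshold of 1.5. The count of lower members was 1, and it was 2 at a pseudocount of 0.1 FPKM (with Col27a1), 2 with the libraries rescaled to the same upper quartile (with Itgb4) and 4 at a fold threshold of 1.5. The members' median log2 ratio of 0.11 became 0.022 under the upper quartile rescaling. It became 0.010 without a level filter, which adds 31 members under 1 FPKM. The median over all genes kept in each setting moved as well, from 0.016 to -0.067 under that rescaling and to -0.008 without a filter. Of 145 values of single members under other settings, 142 kept their sign; Col4a1, Itgb5 and Thbs3 turned to -0.03, -0.04 and -0.04 under the upper quartile rescaling. Over all measured genes, the counts past 2-fold were 963 higher and 1021 lower, and 1315 and 1553 at a pseudocount of 0.1 FPKM, 428 and 297 at 5 FPKM, 220 and 128 at a fold threshold of 4, and 2241 and 2407 at 1.5. With 1 library per group, no library could be left out, and no difference has a replicate check. Members with few fragments, such as Lama3, Col7a1 and Lamb1 in the lower library, are limited by depth.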
